A study of Mus musculus with 3 samples.

Results

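The 3 mouse sestrin genes, Sesn1, Sesn2 and Sesn3, were examined for peaks of the zinc finger protein ZFP410. They are 3 of 21887 protein-coding genes on placed chromosomes, and were chosen as a family because Sesn1 held strong ZFP410 peaks, so the values that led to the choice are given as a description. All peaks inside each gene or within 10 kb of it were taken. There was 1 such peak in untreated brown preadipocytes, 4 after differentiation was induced and 0 with control IgG, out of 3256, 7475 and 480 peaks in the whole lists. Sesn1 had 3 of these 5 peaks, Sesn2 had 2 and Sesn3 had 0. By gene, 2 of the 3 sestrins had an induced, 1 an untreated and 0 an IgG peak, and 1 had both ZFP410 peaks. Over all coding genes 21.3% had an induced, 11.1% an untreated and 0.694% an IgG peak inside or within 10 kb, and 7.66% had both ZFP410 kinds; since the family was chosen on these lists, nothing is read from the comparison.

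Sestrins are stress-inducible proteins of the cytoplasm that restrain the growth kinase complex mTORC1. Sestrin 2 binds leucine and, without it, holds back the GATOR2 complex, so that amino acid shortage turns mTORC1 down. The family also favours AMPK activity and autophagy, and helps Nrf2 by promoting the loss of its inhibitor Keap1. Sesn1 and Sesn2 are known targets of p53, Sesn2 also of ATF4, and Sesn3 of FoxO factors.

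Binding was mapped by CUT&Tag, in which an antibody tethers a transposase to chromatin so that the DNA around the bound protein is cut and tagged. The cells were Lin-CD29+CD34+Sca1+ brown preadipocytes, precursors of thermogenic fat, sorted from brown adipose tissue of male C57BL/6 wild-type mice and kept in culture. The 3 libraries were ZFP410 antibody on untreated cells, ZFP410 antibody on cells given brown adipocyte differentiation medium for 3 days (induced), and IgG on untreated cells. Each group had 1 library, so every difference below compares libraries and cannot be set against the spread between cultures, and p-values are not printed. Peak lists hold no RNA levels, so the cell label was not checked against its markers and sestrin expression was not measured here.

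The depth of a library sets which sites can be called. The median peak had 4, 7 and 4 fragments over its summit in the untreated, induced and IgG libraries. The genome background, which is the number of fragments that the peak caller takes for a site with no enrichment, was 0.110, 0.246 and 0.0231 fragments. An induced site therefore held 2.24 times the fragments of an untreated site at equal enrichment, and 10.7 times those of an IgG site. At this background the weakest called peaks had 3, 4 and 2 fragments.

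The annotated start regions of the sestrin genes are printed here because induced peaks at Sesn1 and Sesn2 overlapped 2 of them. Each runs 5′ to 3′ along the gene from 250 bases before the start to 50 after it, from RefSeq on GRCm38.p6, the assembly of mm10. Capitals mark the CCAAT box on either strand, a promoter element bound by the factor NF-Y. Sesn1 has 2 starts, and its first one lies head to head with the neighbouring gene Cep57l1, which encodes a centrosomal protein and whose outer start region is shown too. The windows are chr10:41810324-41810623 (plus strand) for the first and chr10:41887189-41887488 (plus) for the second start of Sesn1, chr4:132510407-132510706 (minus) for Sesn2, chr9:14276051-14276350 (plus) for Sesn3 and chr10:41809819-41810118 (minus) for Cep57l1.
Sesn1, first start: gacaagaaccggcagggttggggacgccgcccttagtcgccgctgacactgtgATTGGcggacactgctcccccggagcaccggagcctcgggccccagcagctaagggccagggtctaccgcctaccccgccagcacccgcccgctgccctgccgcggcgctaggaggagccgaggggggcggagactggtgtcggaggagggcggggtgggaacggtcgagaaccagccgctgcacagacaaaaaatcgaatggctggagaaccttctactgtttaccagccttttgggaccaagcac
Sesn1, second start: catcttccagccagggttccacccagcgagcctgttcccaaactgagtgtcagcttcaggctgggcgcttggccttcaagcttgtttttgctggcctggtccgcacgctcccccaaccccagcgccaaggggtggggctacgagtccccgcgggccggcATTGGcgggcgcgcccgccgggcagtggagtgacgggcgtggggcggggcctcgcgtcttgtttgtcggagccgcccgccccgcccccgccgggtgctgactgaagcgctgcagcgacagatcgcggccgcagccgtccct
Sesn2: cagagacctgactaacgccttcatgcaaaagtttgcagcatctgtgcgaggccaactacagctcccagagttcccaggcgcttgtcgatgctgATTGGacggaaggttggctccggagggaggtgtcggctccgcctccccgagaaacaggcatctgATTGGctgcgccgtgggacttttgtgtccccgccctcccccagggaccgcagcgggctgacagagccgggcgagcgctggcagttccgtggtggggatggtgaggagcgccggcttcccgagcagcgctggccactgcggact
Sesn3: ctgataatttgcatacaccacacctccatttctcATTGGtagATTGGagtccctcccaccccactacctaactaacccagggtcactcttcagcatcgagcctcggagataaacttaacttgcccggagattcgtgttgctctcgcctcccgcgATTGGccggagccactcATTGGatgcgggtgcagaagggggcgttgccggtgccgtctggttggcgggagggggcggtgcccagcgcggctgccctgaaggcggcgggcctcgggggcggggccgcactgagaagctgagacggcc
Cep57l1: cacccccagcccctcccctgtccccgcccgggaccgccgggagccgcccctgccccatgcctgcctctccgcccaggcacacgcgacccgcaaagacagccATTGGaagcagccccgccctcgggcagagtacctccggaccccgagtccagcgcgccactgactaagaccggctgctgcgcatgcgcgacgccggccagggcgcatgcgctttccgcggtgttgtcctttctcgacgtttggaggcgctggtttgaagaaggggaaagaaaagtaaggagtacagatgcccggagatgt

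All 4 sestrin windows held a CCAAT box, where 38.2% of the 21263 windows of coding genes did, as did 44.5% of those with an induced summit within 1 kb. Sesn3 had 4, Sesn2 had 2 and the starts of Sesn1 had 1 each. The first Sesn1 box began 197 bases before the start, the Sesn2 boxes 157 and 93 bases before it. The GC box GGGCGG, on either strand, was present 4 times at both Sesn1 starts, once at Sesn2 and 2 times at Sesn3. It was in 46.2% of all windows and in 69.9% of those with an induced summit. The letters CATCCCA, the beginning of the known ZFP410 site of Chd4, were in none of the 4 windows nor in that of Cep57l1, on either strand, and in 4.41% of all windows (3.65% of those with an induced summit). Of the other motifs searched, TGACG (the core of a CREB factor site) was present once, at the second Sesn1 start. It was in 23.6% of all windows and in 39.4% of those with an induced summit. The E-box CACGTG and TATAAA were in none, against 7.84% and 12.6% of all windows (10.4% and 5.22% of those with an induced summit). The sestrin windows were rich in G and C, at 66.7% and 71.0% for the Sesn1 starts, 64.7% for Sesn2 and 62.7% for Sesn3, where the median window had 56.3% and the median window with an induced summit 62.3%. Sesn3, which had no peak, had the lowest share of G and C and the most CCAAT boxes of the 4 windows. The second Sesn1 start, also without a peak, had the highest share of G and C, 71.0%, and 1 CCAAT box.

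**Figure D1:**
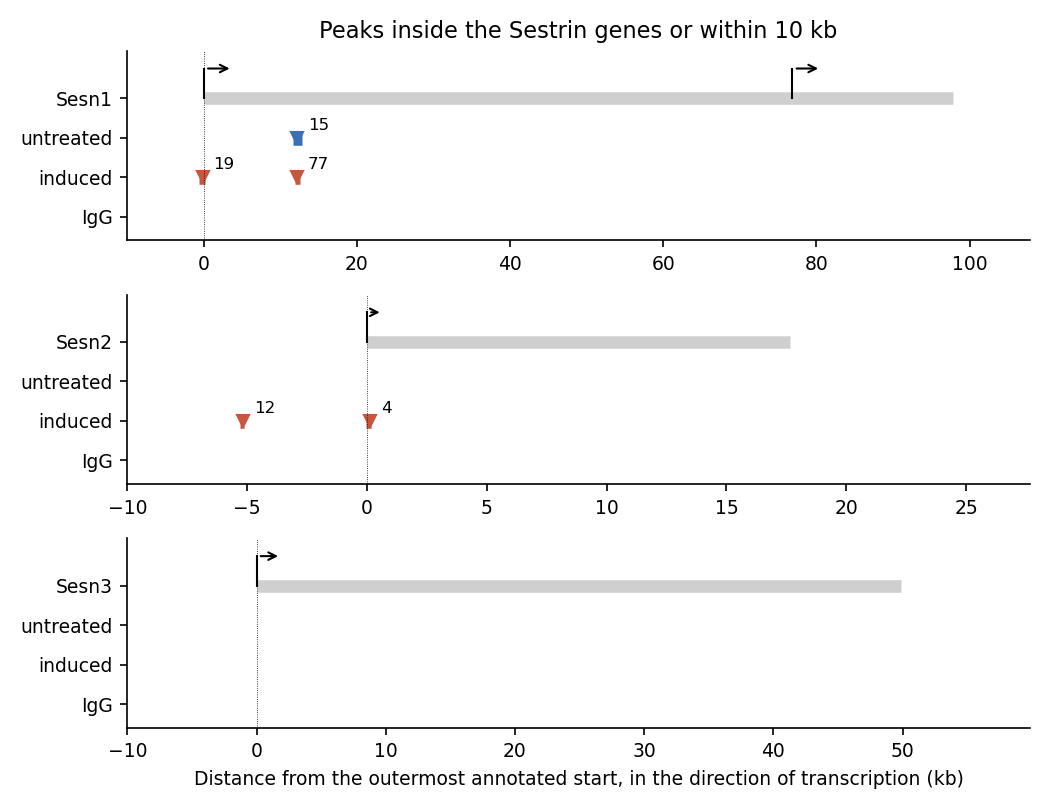
Position of each peak, in kb from the outermost annotated start along the direction of transcription; grey bars are the genes, arrows their starts, triangles the summits, and the numbers the fragments at each summit. Sesn1 carried peaks at its first start and 12186 to 12203 bp inside, Sesn2 at its start and upstream of it, and the Sesn3 panel holds no peak.

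The strongest sestrin site lay inside Sesn1, a p53-responsive member of the family (gene ID 140742, chr10:41810574-41908436, plus strand), and was present before and after induction. The untreated peak, chr10:41822248-41823351, had its summit at position 41822777 and was 1104 bp wide. The induced peak, chr10:41822417-41823169, had its summit at 41822760 and was 753 bp wide. The summits were 17 bp apart, and the induced peak lay wholly within the untreated one, of which it covered 68.2%. The untreated and induced summits were 12203 and 12186 bp downstream of the first start of Sesn1, and 64662 and 64679 bp upstream of the second. It is inside the gene; whether it is exonic or intronic was not determined, and its sequence was not used here.

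At this site the untreated library had 15 fragments (95% Poisson interval 8.40 to 24.7), the induced library 77 (60.8 to 96.2), and the IgG library no peak. The induced value was the higher, and the intervals of the ZFP410 libraries did not overlap. These intervals cover counting error only and do not allow for depth. Scaled to the induced genome background, the untreated interval was 18.8 to 55.4. Enrichment over the genome background was 136.5-fold in untreated and 313-fold in induced cells. The ratio of enrichment, induced over untreated, was 2.29 (95% exact binomial interval on the fragments 1.31 to 4.29), where equal enrichment would have given 33.6 induced fragments from the 15. The choice of the site on these values means that the ratio is a description and carries no test. IgG would have held 7.21 fragments (5.69 to 9.01) at the enrichment of the induced peak, above the weakest IgG call of 2. At that of the untreated peak it would have held 3.15 (1.76 to 5.19), or 2.14 when scaled by depth. The absence of an IgG peak therefore says little about the untreated one. The IgG library came from untreated cells, so it does not give the background of induced cells at this site. The nearest IgG summit was 5968307 bp from Sesn1.

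**Figure D2:**
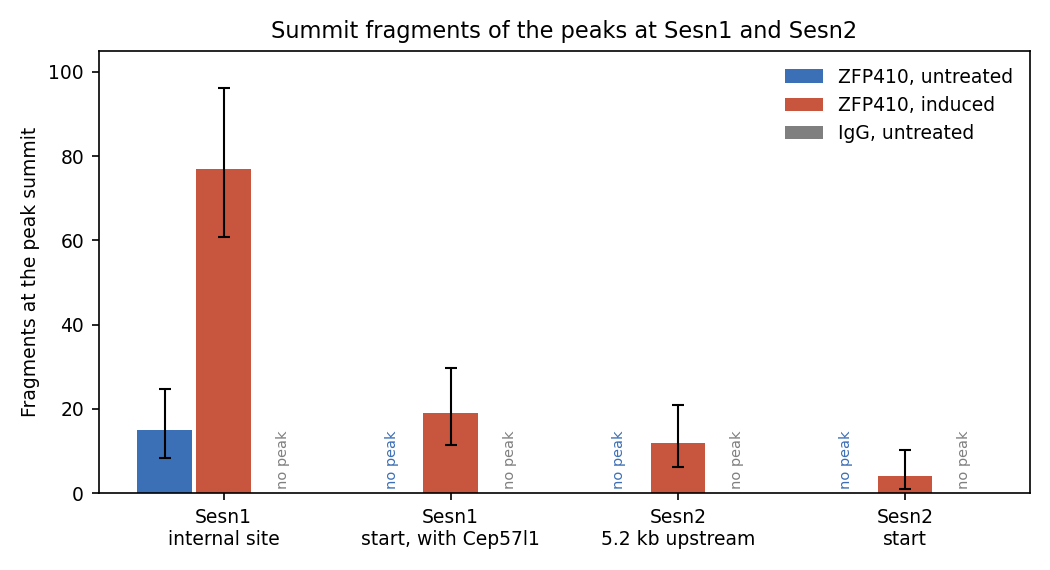
Fragments at the summit of each sestrin peak in the 3 libraries, with 95% Poisson intervals for counting error; "no peak" marks a library with none called there. The site inside Sesn1 is the one with a peak in both ZFP410 libraries, at 15 and 77 fragments. IgG, on untreated cells only, has no peak at any of the 4 sites.

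Both peaks inside Sesn1 stood near the top of their lists. By the authors' fold over local background, the untreated one ranked 44 of 3256 at 14.4 and the induced one 7 of 7475 at 62.6, values that rank peaks within their own list only. Among peaks inside coding genes and over 1 kb from their ends it ranked 14 of 1147 in the untreated and 3 of 2436 in the induced list. By fragments rather than fold it ranked 123 and 81 over the whole lists, since sites with raised local background hold many fragments at a low fold. The local background at Sesn1 was the genome background in both libraries. The untreated peak was wider than 99.0% and the induced one than 96.5% of its list.

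Over the 1583 pairs of overlapping untreated and induced peaks the median ratio of enrichment was 0.829, and 57 pairs (3.601%) had a higher ratio than Sesn1. Of the 519 pairs inside coding genes away from their ends, 19 (3.66%) did. Many of these pairs have few untreated fragments and loose ratios. An induced peak that overlapped several untreated peaks gave a pair with each, so the pairs are not all separate sites. Among the 45 pairs with at least 15 untreated fragments and local backgrounds at most 2 times the genome background, ratios ran from 0.268 to 2.90 around a median of 0.944, and Sesn1 ranked 4.

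**Figure D3:**
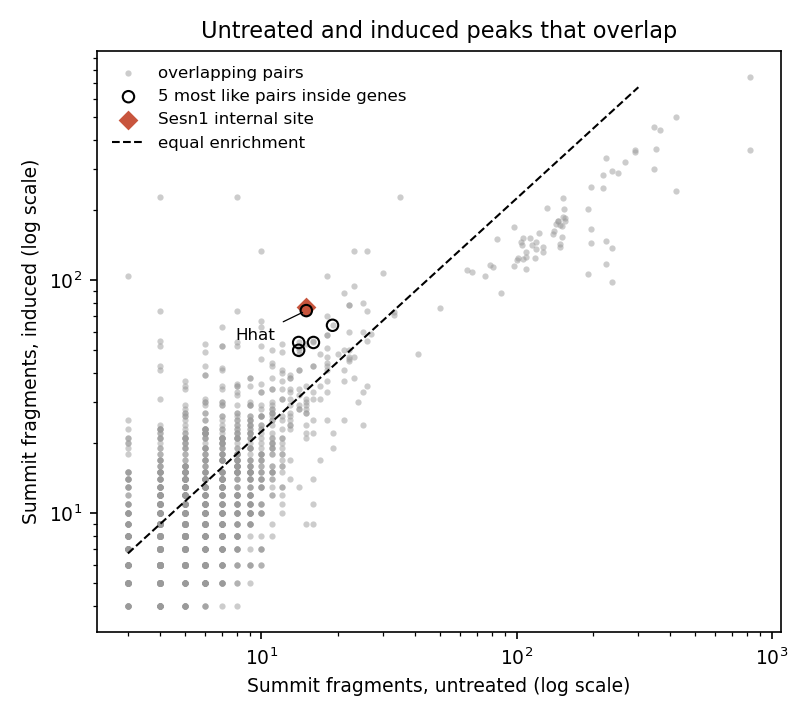
Summit fragments in the untreated (x) and induced (y) library for 1583 pairs of overlapping peaks, both axes logarithmic; the dashed line marks equal enrichment, at 2.24 times as many induced fragments. The Sesn1 internal site (15 and 77) lies above the line, with the Hhat pair (15 and 74) next to it.

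Likeness was sought only among pairs inside coding genes and over 1 kb from their ends, and pairs elsewhere were not ranked. The pair most like the Sesn1 site there, by the summed log2 differences in fragments over both ZFP410 libraries, lay inside Hhat, which encodes the acyltransferase that palmitoylates Hedgehog proteins. It held 15 untreated and 74 induced fragments (chr1:192745683-192747948 in the induced list), a ratio of 2.202 and a distance of 0.057 from Sesn1. The same induced peak also spanned untreated peaks of 4 and 8 fragments, which give higher ratios, so the likeness holds for 1 of its 3 pairs. The next pairs inside genes were farther off, at distances of 0.605 to 0.722. They lay inside Tulp4 (16 and 54 fragments), Dop1b (19 and 64), Tnfrsf22, a TRAIL decoy receptor gene (14 and 54), and Gucy2g, a guanylyl cyclase gene (14 and 50). Their ratios were 1.503 to 1.722, and Dop1b and Gucy2g ranked only 451 and 1190 by fold in the induced list.

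A second Sesn1 peak, at its first start, was called in the induced library alone and is shared with Cep57l1. It lay at chr10:41809949-41810661, was 713 bp wide and had its summit at 41810406. This is 168 bp upstream of the Sesn1 start and 538 bp upstream of the outer Cep57l1 start, inside the 706 bp between the annotated ends of the genes, so which of them it belongs to cannot be told from position. The summit lies inside the first Sesn1 window printed above. It held 19 induced fragments (95% Poisson interval 11.4 to 29.7), 77.2 times the genome background. With a fold of 16.0 it ranked 265 of 7475, and 5 of the 1166 induced peaks within 1 kb of a gene end that overlapped no untreated peak.

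Equal enrichment would have put 8.48 untreated fragments (5.11 to 13.2) at this site, above the 3 of the weakest untreated call, yet no untreated peak was listed. The lists do not give the number of untreated fragments at the site, and a peak chosen for its call in the induced list alone tends to have a high value there. In IgG 1.78 fragments would have been expected, under the weakest call of 2, so the absence of an IgG peak at the start says little. Nearest in rank among the induced gene-end peaks without an untreated one was that of Raly, an RNA-binding protein gene, also at 19 fragments and rank 265. Next came those shared by Cdca2 and Kctd9 (33 fragments over a raised background, rank 258), of Itga10 and Cops4, and shared by Lsm3 and Xpc (18 fragments each, rank 304).

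The 2 induced Sesn1 summits lay 12354 bp apart with 11755 bp free of peaks between them. No peak was listed at the second start of Sesn1, nor at its far end, which is 27 bp from Armc2, a gene of sperm flagella: from that end the internal summits were 85659 and 85676 bp away. Peaks at Sesn1 were thus all near its first start or on its side of the gene.

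Sesn2, the leucine-sensing member (gene ID 230784, chr4:132492804-132510456, minus strand), had 2 weaker peaks, both in the induced library alone. The one at its start, chr4:132510273-132510481, had its summit at 132510336, 120 bp downstream of the start and so inside the gene. It held 4 fragments (1.09 to 10.2), the lowest number called in that library at the genome background, and ranked 6539 of 7475 with a fold of 4.01. At equal enrichment 1.79 untreated fragments would have been expected, fewer than the 3 needed, so the lack of an untreated peak was not informative at this depth.

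The other Sesn2 peak, chr4:132515569-132515763, was 5170 bp upstream of the start and outside the gene. It held 12 induced fragments (6.20 to 21.0), 48.7 times the genome background, and ranked 785 with a fold of 10.4. Equal enrichment would have put 5.36 untreated fragments (2.77 to 9.36) there, against the 3 needed, and none was called. The lower end of that interval is under 3. A peak called in the induced list alone tends to have a high value there, and a gain at this site was not tested. The summit lay 382 bp from the tRNA gene n-TAagc8 and 14929 bp from Atpif1, the next coding gene on that side, which encodes the inhibitor of the mitochondrial ATP synthase. The tRNA gene was thus closer to it than Sesn2. The nearest untreated summit was 70279 bp from Sesn2 and the nearest IgG summit 17347870 bp. At equal enrichment IgG would have held 1.12 fragments at the upstream and 0.375 at the start peak, both under the weakest IgG call of 2, so its lack of peaks at Sesn2 says little.

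**Figure D4:**
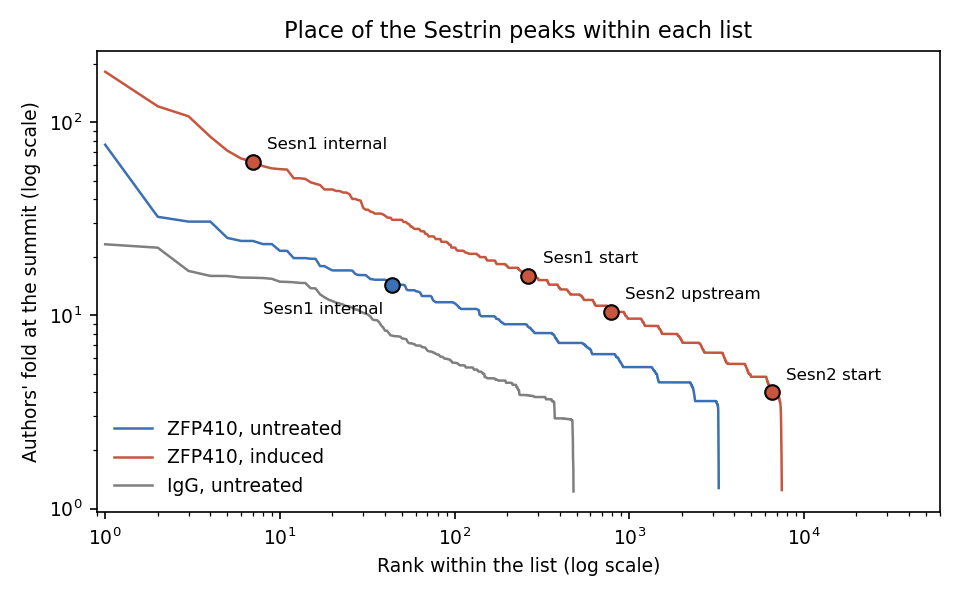
Authors' fold of every peak against its rank within its list, both axes logarithmic, with the sestrin peaks as filled circles; folds rank peaks within a list and are not compared between lists. The site inside Sesn1 is at rank 44 (untreated) and 7 (induced), the Sesn1 start at 265 and the Sesn2 peaks at 785 and 6539.

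Sesn3, the FoxO-responsive member (gene ID 75747, chr9:14276301-14326134, plus strand), had no peak in any library. The nearest untreated summit was 366072 bp from the gene and the nearest induced one 365948 bp, in overlapping peaks nearest to Fam76b with 6 and 23 fragments. Across coding genes 34.1% were at least as far from an untreated summit and 14.9% from an induced one, where the median distances were 192926 and 82220 bp. What a called peak needed, at least 27.3 times the genome background in the untreated and 16.2 times in the induced library, bounds what could be seen. The weakest sestrin peak, at the Sesn2 start, stood at 16.2.

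The order of the genes by their highest induced peak was Sesn1 (77 fragments), Sesn2 (12) and Sesn3 (none listed). The intervals of 60.8 to 96.2 and 6.20 to 21.0 for Sesn1 and Sesn2 do not overlap. Within Sesn1 the internal site and the start (11.4 to 29.7) do not overlap either, while the Sesn1 start and the upstream Sesn2 peak do. The family was chosen for its strong Sesn1 peaks and the highest peak of each gene was taken. The order and these intervals are therefore a description and carry no test. The windows of 117863 bp at Sesn1, 69834 bp at Sesn3 and 37653 bp at Sesn2 give the genes unequal room, although Sesn3, with more room than Sesn2, had none. Summits within 1 kb of an annotated start were found for 3.94%, 8.89% and 0.0172% of genes (untreated, induced, IgG). In the sestrins they were at the first Sesn1 and the Sesn2 start, both in the induced library.

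Genes that act with or upstream of sestrins were taken as 10 lists of 73 genes, of which 72 were matched. In all 14 (19.4%) had an untreated and 21 (29.2%) an induced peak inside or within 10 kb, beside the 11.1% and 21.3% of all coding genes. An IgG peak was found at 0 of them, beside 0.694% of all coding genes. At a −log10 q of 5 or more the ZFP410 counts fell to 4 (5.56%) and 11 (15.3%), beside 3.35% and 12.6% of all coding genes. No peak was found at the 5 genes of GATOR2, the sestrin target, the 3 matched genes of KICSTOR (Kics2 was unmatched) or the 9 of mTORC1 with its Rheb and TSC switch, while GATOR1 and the Rag and Ragulator list had some. Of 3 GATOR1 genes, which restrain the Rag GTPases, Depdc5 had a peak at its start with 7 untreated and 18 induced fragments. Of 9 Rag and Ragulator genes Lamtor1 (6 and 14) and Lamtor2 (4 and 4, in peaks that did not overlap) had one.

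Among 7 amino acid sensors and regulators, Flcn, the folliculin gene, had 5 untreated and 13 induced fragments at its start. Slc38a9, which encodes the lysosomal arginine sensor, held a site deep inside the gene, 51214 bp from its start (chr13:112711348-112712408 in the induced list). This site, strong and internal as in Sesn1, had 18 untreated and 43 induced fragments and ranked 32 and 49 by fold. Its ratio of enrichment was 1.07 (0.602 to 1.96), whereas that of Sesn1 was 2.29 (1.31 to 4.29); the intervals overlap and the difference was not tested. Fnip1, a folliculin partner, had a weak induced peak of 5 fragments.

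The stress factors known to drive sestrins had 3 of 9 members with an untreated and 6 of 9 with an induced peak. Over all coding genes the shares were 11.1% and 21.3%, and no list was tested against them. Trp53, encoding p53, had an induced peak of 11 fragments 955 bp from its nearest annotated start and Ddit3, encoding CHOP, one of 9 fragments near its start that ranked only 6264 by fold. Atf4 held 4 untreated and 10 induced fragments and Foxo3 4 and 8. Trp63 and Trp73 had peaks away from their ends, with 10 and 5 induced fragments. Of the 10 other p53 targets 3 had a peak in each library: Gadd45a had 6 untreated fragments at its start and no induced peak, Mdm2 an induced peak of 4 fragments at its start and an untreated one of 3 upstream of it, and Ddit4 peaks some kb away in both, while Cdkn1a had 1 of 4 fragments beyond its end in the induced library.

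AMPK genes had 1 of 8 untreated and 3 of 8 induced, beside the 11.1% and 21.3% of all coding genes. Stk11, the LKB1 kinase gene, had 5 and 8 fragments. Prkab2 and Prkag1, subunit genes, had 5 and 6 in the induced library alone. Of 9 autophagy and Nrf2 partners 2 had an untreated and 3 an induced peak, among them Rbx1 (7 induced fragments at its start), Keap1 (4 untreated fragments near its start) and Txnrd1 (4 and 9). In 8 genes of the lists the best-ranked untreated and induced peaks overlapped, and their ratios of enrichment ran from 0.714 (Stk11) to 1.16 (Flcn), each with an interval that included 1. The induced library was estimated to be 2.01 times as deep, if both were called against the same control, which is not given. The part of depth in the genes called in the induced library alone was not tested.

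**Figure D5:**
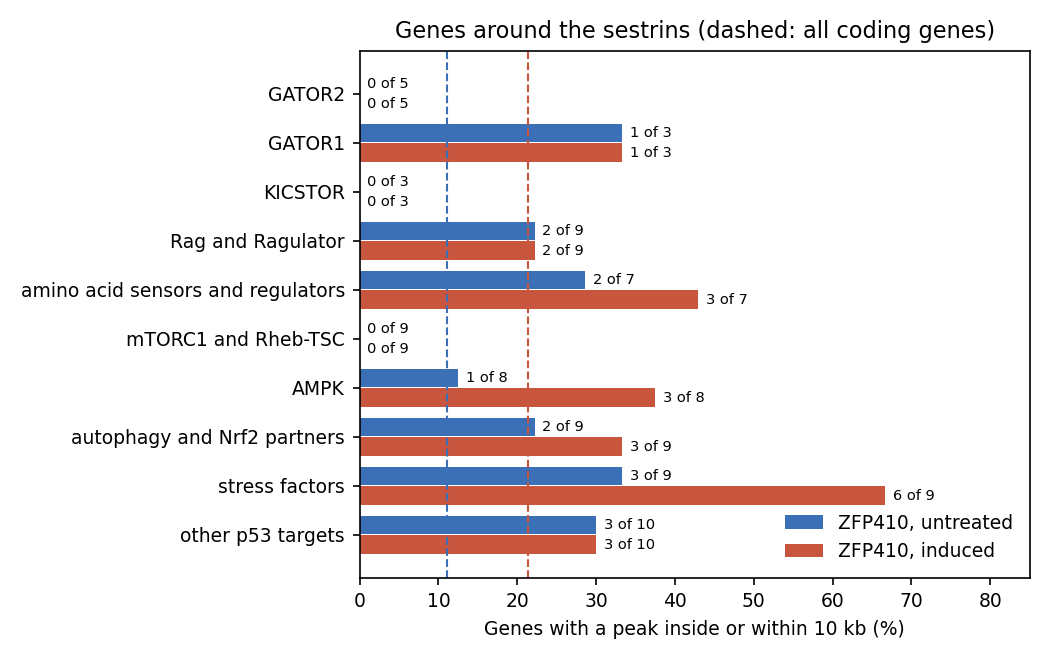
Percent of the genes of each list with a ZFP410 peak inside or within 10 kb in the untreated (blue) and induced (red) library, with counts beside the bars; dashed lines give the share of all coding genes, 11.1% and 21.3%. GATOR2, KICSTOR and the mTORC1 list are at 0, and the stress factors are highest in the induced library at 6 of 9.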

How the data were processed

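CUT&Tag libraries of brown preadipocytes were grouped by their labels. Per the submitters' processing notes, MACS2 2.1.1, Bowtie2 2.2.6 and Picard were used, with mm10. The authors deposited 1 narrowPeak list per library, whose peak names carry a q threshold of 0.1. Values per peak are the authors' fold of summit over local background (a ratio), the −log10 of p-value and q-value, and a score, which was not used. Which control the caller had, and how duplicates were handled, is not given in the sources used here.

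Summit fragments and local background were solved from fold and −log10 p, which fit within 0.001 for 3255, 7474 and 480 untreated, induced and IgG peaks (0.01 was allowed in pairs). Tested on simulated data, this gave back 100% of the planted numbers for 500 peaks per library. Relative depth came from the grid of local backgrounds, 2.01 for induced over untreated. It is an estimate that assumes the same control for every library. Ratios divide fragments by genome background, and 95% intervals cover counting error only. Summits are column 2 plus column 10, written 1-based. Gene ends and starts came from RefSeq tables of GRCm38.p6, with promoter windows for 17492 coding genes. Peaks overlapped when sharing 1 bp.

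Members, lists and tests were chosen with earlier results of these data known. Named genes were the sestrins and their neighbours, members of each list with a summit within 1 kb of a gene end or up to 4 by induced fragments, and, among pairs inside genes or induced gene-end peaks without an untreated one, the 5 most similar. Analyses used Python 3.11.15, scipy 1.17.1 and pandas 2.3.3. Windows of 1, 5 and 50 kb, summit-based membership, a −log10 q or fold of at least 5 and scaling by depth were tried as alternatives.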

Additional observations from a re-analysis of the deposited data

How the results depend on the processing

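Each group had 1 library, so no replicate could be left out. No paired analysis was possible because each group held 1 library. The counts of sestrin peaks stayed within 1.5 times of 1, 4 and 0 under all alternatives: the induced count was 3 with windows of 1 and 5 kb, at a −log10 q of at least 5 and at a fold of at least 5. Scaled by depth, the Sesn1 ratio was 2.55 and the untreated fragments expected at the Sesn1 start 9.45. The ratio of the authors' folds at the Sesn1 site was 4.34, above the interval of the main ratio; the 1 that is added to fragments and background makes it a different quantity. The share of coding genes with a peak, in the order untreated, induced and IgG, was 7.85%, 15.9% and 0.53% with a window of 1 kb, 9.35%, 18.4% and 0.58% with 5 kb, and 23.5%, 39.9% and 1.73% with 50 kb. With −log10 q limited to 5 or more it was 3.35%, 12.6% and 0.142%, and at a fold of at least 5 it was 5.62%, 15.9% and 0.215%. With that q filter, 4 untreated and 11 induced genes were left in the pathway lists. Of 44 values recomputed, 26 stayed close to the main value and 18 moved. Depth limits the Sesn2 start most, where 4 fragments carry the call.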
